A study of Homo sapiens with 18 samples.

Results

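The comparison described here was between HCC1806 cells given a *PART1* antisense oligonucleotide, GapmeR 2, and HCC1806 cells given a negative control GapmeR. It was made over every transcript cluster of the array that the platform annotation pairs with 1 gene symbol, which were 16098 of 53617 transcript clusters and 14884 distinct symbols. The series holds 18 Human Gene 2.0 ST arrays (Affymetrix) of total RNA from 2 triple-negative breast cancer lines, HCC1806 and HCC1395. In each line GapmeR 2, GapmeR 1 and the control have 3 arrays apiece. Of these, 3 HCC1806 arrays labelled GapmeR 2 and 3 HCC1806 arrays labelled negative control were compared. HCC1806 is an established line with a basal-like phenotype. All of its cultures, controls included, received a GapmeR at 15 nM, so no culture without an oligonucleotide was analysed here, and RNA was collected after 48 h. Values are log2 signals, a difference of 1 log2 unit is a 2-fold change, and differences are GapmeR 2 minus control. The sources used here do not say whether the 3 arrays of a group were separate cultures. The p-values therefore cover the variation among these arrays alone, and part of it may be technical.

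*PART1* is a long non-coding RNA first described as an androgen-regulated transcript of the prostate. A GapmeR is a short antisense oligonucleotide with a central stretch of DNA between modified ends. It pairs with a complementary RNA in the cell, and RNase H1 cuts the RNA strand of the hybrid.

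The targeted transcript was examined first. *PART1* had log2 signals of 4.03, 4.47 and 3.87 on the arrays labelled GapmeR 2, against 3.88, 3.69 and 3.94 on the control arrays. The groups overlapped, and the difference was 0.28 (SE 0.18, limma unadjusted p = 0.148, adjusted p = 1). *PART1* was dim in HCC1806, with a control mean of 3.84, under the median of all transcript clusters (4.07). In HCC1395, which shares no array with HCC1806, it had 4.86, 5.29 and 4.70 with GapmeR 2 against 5.45, 5.76 and 5.61 with the control. The groups did not overlap there, and the difference was -0.66 (SE 0.20, limma unadjusted p = 0.0092). The 2 lines differed by 0.94 (SE 0.28, limma adjusted p = 0.646, unadjusted p = 0.0039). The part of the dim signal in this was not tested. GapmeR 1 in HCC1806 had 4.04, 3.68 and 4.07, a difference of 0.09 from the same controls (SE 0.18, unadjusted p = 0.629). The sources do not state the stretch of *PART1* that the probes read, so the signal may not cover every form of the transcript. Because no lower *PART1* signal was measured with GapmeR 2 in HCC1806, the groups are named by their labels and each direction below is that of the labelled arrays.

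The 6 arrays had medians of 4.07 to 4.13 over all transcript clusters. Each correlated with the others of its group at a mean r of 0.988 to 0.99 across the transcript clusters with a symbol. Of the basal markers, the 3 measured (*KRT5*, *KRT14*, *EGFR*) averaged 7.82 to 9.33 on the arrays labelled GapmeR 2 and 7.95 to 9.44 on the control arrays. Of the markers of other cell types, 5 were measured: *PECAM1* and *VWF* of endothelium, *DCN* and *LUM* of fibroblasts and *CD14* of monocytes. *PECAM1*, *DCN*, *VWF* and *CD14* were under the median of all transcript clusters (4.07) on average in both groups, and *LUM* was over it, at 6.77, 5.93 and 6.19 with GapmeR 2 against 6.17, 5.40 and 6.14 with the control (0.40, unadjusted p = 0.163). *VWF* had 3.96, 4.03 and 3.72 with GapmeR 2 against 3.74, 3.47 and 3.56 with the control (0.31, unadjusted p = 0.0427), and the other 4 did not reach an unadjusted p of 0.05. The part of these markers in the results below was not tested. None of the 12 basal, luminal and mesenchymal markers measured reached that p. *ESR1* and *PGR*, the hormone receptor genes that triple-negative cells lack as proteins, averaged 4.89 and 2.54 with GapmeR 2 against 4.88 and 2.57 with the control. Other luminal markers were brighter. *FOXA1*, *GATA3*, *KRT8* and *KRT18* averaged 5.92, 8.30, 5.50 and 10.34 with GapmeR 2 against 5.94, 8.25, 5.59 and 10.27 with the control. *KRT18* was thus above each basal marker measured.

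No gene passed an adjusted p of 0.05 with limma (0 of 16098, 0%), and the smallest adjusted p was 0.82. At an unadjusted p of 0.05 there were 570 transcript clusters (3.54%). A linear model without moderation also called 0 after adjustment and 713 before it. By the rule used from here on, a difference past 1.6-fold at an unadjusted p under 0.05, 51 transcript clusters were called (0.317%). Of them 26 were higher with GapmeR 2 (0.162%) and 25 were lower (0.155%). Over all transcript clusters, with or without a symbol, 557 were called (1.04%). The 3 arrays labelled GapmeR 2 lay wholly above the 3 controls for 826 transcript clusters (5.13%) and wholly below for 863 (5.36%), and 39 of the 51 called did not overlap. The called genes named for the size of their difference were taken from these 39, so their lack of overlap came from that choice. The median difference over all 16098 was 0.00 and the median SE 0.16.

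The called genes were then split by class and brightness. Protein-coding genes made up 19 of the lower calls and 13 of the higher calls among 12695 measured. MicroRNA genes made up 4 of the lower and 9 of the higher calls among 1236 measured. They were called at 1.05%, against 0.252% of protein-coding genes and 1.04% of all transcript clusters with or without a symbol. Of the 19 protein-coding genes called lower, 16 had a signal at or over the median of all transcript clusters (84.2%), near the 77.2% of all protein-coding transcript clusters. Of the 13 called higher, 4 did (30.8%).

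*DYM*, which had the lowest difference of the 19 protein-coding genes called lower, lies between *SMAD2* and *SMAD4* on chromosome 18, and all 3 were called lower. *SMAD2* encodes a receptor-activated transducer of TGF-beta and activin signals, and *SMAD4* the common partner that joins the activated SMADs on their way to the nucleus. *DYM* encodes dymeclin, a Golgi-associated protein whose loss causes a skeletal dysplasia. *DYM* had signals of 6.90, 6.61 and 7.78 with GapmeR 2, against 7.96, 8.05 and 8.12 with the control. All 3 arrays labelled GapmeR 2 were below the lowest control, with replicate 3 nearest to it. The difference was -0.95, a 1.93-fold lower signal (SE 0.25, limma unadjusted p = 0.00369, adjusted p = 0.888). *SMAD2* had signals of 7.30, 7.41 and 8.07 with GapmeR 2, against 8.38, 8.33 and 8.47 with the control. Its difference was -0.80, or 1.74-fold lower (SE 0.19, limma unadjusted p = 0.00182, adjusted p = 0.888). *SMAD4* had signals of 6.92, 6.90 and 7.83 with GapmeR 2, against 8.05, 7.86 and 8.0 with the control. For *SMAD4* the third array labelled GapmeR 2 came within a few hundredths of the lowest control, and the difference was -0.76, or 1.69-fold lower (SE 0.24, limma unadjusted p = 0.0113, adjusted p = 0.952). *DYM* was called with any array left out. *SMAD2* missed the 1.6-fold line without GapmeR 2 replicate 1 (-0.66), and *SMAD4* missed it without GapmeR 2 replicate 1 (-0.61) or replicate 2 (-0.60).

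**Figure D1:**
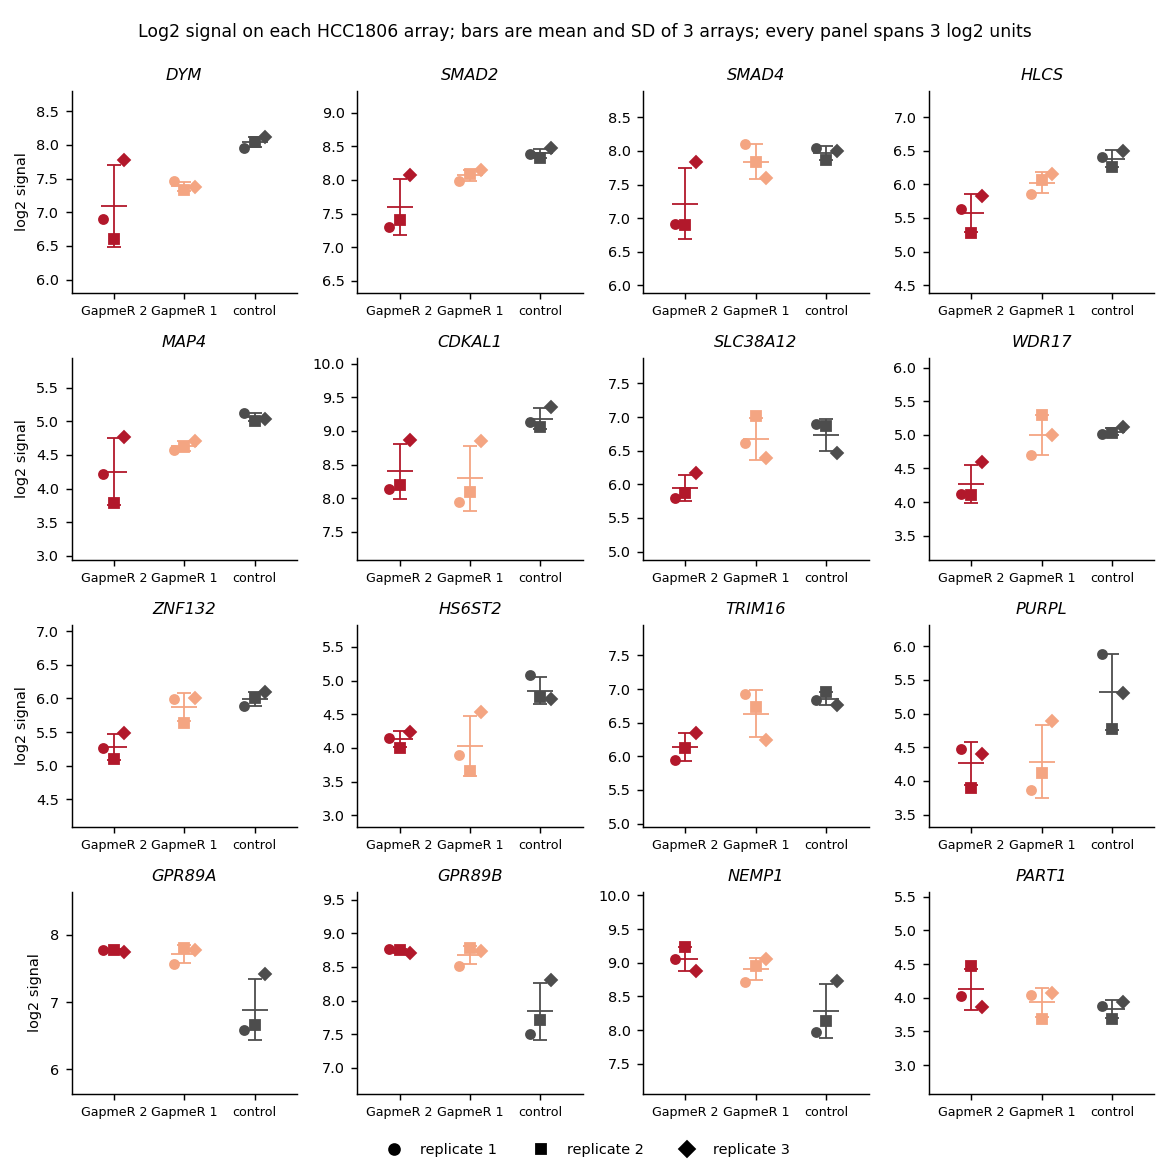
Log2 signal of 16 genes on each of the 9 HCC1806 arrays (points, one shape per replicate), with the mean and SD of 3 arrays. *DYM*, *SMAD2* and *SMAD4* lie below all controls on each array labelled GapmeR 2, with replicate 3 highest, while *PART1* overlaps between the groups (4.03, 4.47 and 3.87 with GapmeR 2 against 3.88, 3.69 and 3.94 with the control).

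Among the 14 measured protein-coding genes that lie between *SMAD2* and *SMAD4* in RefSeq order, *DYM* alone was called. The other 13 had differences of -0.31 (*CTIF*, a translation initiation factor of newly exported mRNAs) to 0.31 (*MAPK4*, an atypical MAP kinase). *SMAD7*, which encodes an inhibitor of the pathway and lies between them, had signals of 4.54, 4.18 and 4.36 with GapmeR 2 against 3.98, 4.57 and 4.48 with the control, a difference of 0.01. The neighbours nearest to the 3 genes in signal were *RPL17*, *ACAA2* and *SKA1*, with control means of 8.60, 7.45 and 7.03. Their differences were -0.14, -0.27 and 0.02, so they did not share the lower signals. Other neighbours were dim, among them *ZBTB7C*, *CFAP53* and *MAPK4*, with control means of 3.25, 3.14 and 3.56, and tell less about this. Beyond this stretch, *FHOD3*, a formin that assembles actin, and *NETO1*, an auxiliary subunit of kainate receptors, were also called lower on chromosome 18. *FHOD3* had 5.31, 5.0 and 5.60 with GapmeR 2 against 6.49, 6.40 and 5.60 with the control (-0.86, SE 0.24), and its groups met at control replicate 3. *NETO1* was dim, with 2.32, 2.85 and 2.83 with GapmeR 2 against 3.71, 3.84 and 3.03 with the control (-0.87, SE 0.25). Chromosome 18 held 5 of the 19 lower protein-coding calls in 177 measured genes, 2.82% against 0.15% of all protein-coding genes. Its median difference was -0.01, and 5.08% of its genes reached an unadjusted p of 0.05, against 3.27% of all protein-coding genes. The chromosome was looked at after the calls were known, so these shares are a description without a test. The cyclin-dependent kinase partner *CABLES1*, also on chromosome 18, had 2 transcript clusters that disagreed, with differences of 0.74 in the dimmer and -0.53 in the brighter. The dimmer lost its call without GapmeR 2 replicate 3 or control replicate 2 (0.54 to 0.85 over the arrays left out).

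**Figure D2:**
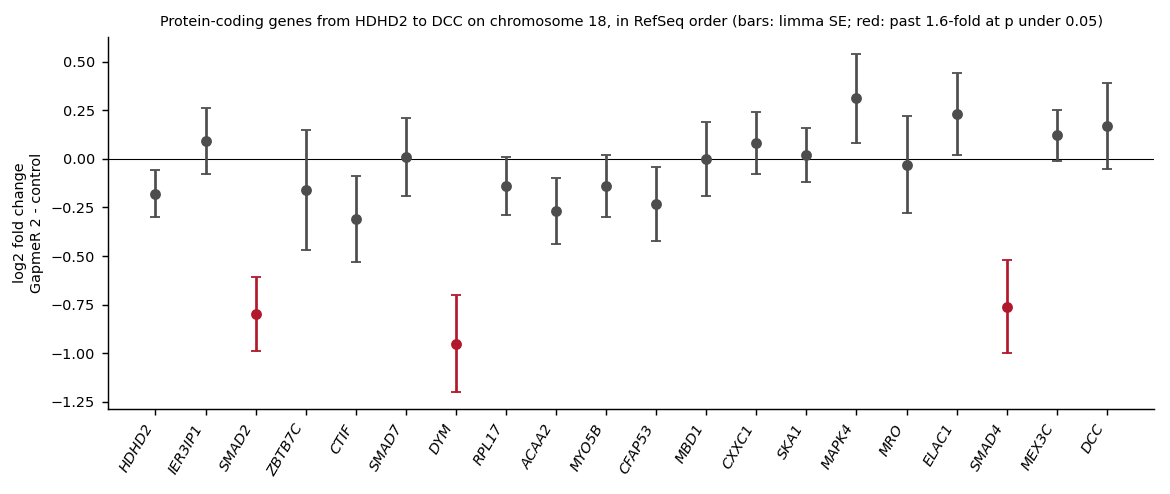
Log2 difference, GapmeR 2 minus control, for 20 measured genes in their RefSeq order along chromosome 18 (points, with the limma SE). *SMAD2* (-0.80), *DYM* (-0.95) and *SMAD4* (-0.76) stand below the 13 genes between them, which reach from -0.31 to 0.31.

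Other lower genes act in metabolism, translation and the cytoskeleton. *HLCS*, which encodes the enzyme that attaches biotin to the carboxylases, had signals of 5.63, 5.27 and 5.82 with GapmeR 2, against 6.40, 6.25 and 6.50 with the control. The groups were well apart, and the difference was -0.81, or 1.75-fold (SE 0.16, limma unadjusted p = 6.20e-04, adjusted p = 0.857). *MAP4*, a microtubule-associated protein of dividing and interphase cells, had 4.21, 3.78 and 4.77 with GapmeR 2, against 5.13, 5.01 and 5.04 with the control (-0.80, SE 0.21). *CDKAL1*, a methylthiotransferase that modifies lysine tRNA, had 8.14, 8.19 and 8.86 with GapmeR 2, against 9.13, 9.06 and 9.36 with the control (-0.79, SE 0.26). In each of these genes no array labelled GapmeR 2 reached the controls, which the rule for naming them required. Without GapmeR 2 replicate 2 the difference was -0.66 for *HLCS* and -0.57 for *MAP4*, and without replicate 1 it was -0.66 for *CDKAL1*, all under 1.6-fold.

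A further group held a glycan enzyme, a transporter and a pair of genes with nucleic acid or protein binding repeats. *HS6ST2*, a heparan sulfate sulfotransferase, had 4.15, 4.0 and 4.24 with GapmeR 2, against 5.08, 4.75 and 4.73 with the control (-0.72, SE 0.21). *SLC38A12*, of the SLC38 solute carrier family, had 5.80, 5.87 and 6.17 with GapmeR 2, against 6.89, 6.86 and 6.46 with the control (-0.79, SE 0.19). *TRIM16*, a tripartite motif protein, had 5.94, 6.12 and 6.35 with GapmeR 2, against 6.83, 6.96 and 6.77 with the control (-0.71, SE 0.19). The 3 genes did not overlap between groups, again as the naming rule required. *WDR17*, a WD-repeat gene, had 4.12, 4.10 and 4.60 with GapmeR 2, against 5.01, 5.02 and 5.11 with the control (-0.78, SE 0.19). *ZNF132*, a zinc finger gene, had 5.26, 5.10 and 5.48 with GapmeR 2, against 5.89, 6.0 and 6.10 with the control (-0.72, SE 0.15). Their limma unadjusted p-values were 0.002 and 9.06e-04, and their adjusted p-values 0.888 and 0.857. *SLC38A12* and *WDR17* were called with any array left out. *HS6ST2* missed the line without GapmeR 2 replicate 2 (-0.66) or control replicate 1 (-0.61), *TRIM16* without GapmeR 2 replicate 1 (-0.61) or control replicate 2 (-0.66), and *ZNF132* without GapmeR 2 replicate 2 (-0.63) or control replicate 3 (-0.67).

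The remaining lower protein-coding calls (*DMTF1*, *ELP4*, *KLHL13*, *LHPP*, *ZHX3* and *ZNF799*) lay between -0.83 and -0.69. They included *ELP4*, a subunit of the Elongator complex that modifies tRNA, and *KLHL13*, an adaptor of a CUL3 ubiquitin ligase used in mitosis. Each of these 6 lost its call with at least 2 of the single arrays left out. The brighter of the 2 *ZHX3* transcript clusters was not called (-0.25). In 16 of the 19 lower protein-coding genes, GapmeR 2 replicate 3 was the array nearest the controls. The median deviation from the control mean over the 19 was -0.93, -1.02 and -0.45 for replicates 1, 2 and 3. Without replicate 3 the fit called 114 transcript clusters, 44 higher and 70 lower. Leaving out any other single array of the 2 groups also raised the count, to 69 to 78, against 51 with all arrays.

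Of the protein-coding genes called higher, 3 were bright and did not overlap between the groups. *GPR89A* and *GPR89B* encode the Golgi pH regulator, an anion channel that acidifies the Golgi. They are near-identical copies on chromosome 1, so their signals may not be independent of each other. *GPR89B* had 8.76, 8.75 and 8.70 with GapmeR 2, against 7.5, 7.71 and 8.31 with the control, a difference of 0.90 or 1.86-fold (SE 0.19, limma unadjusted p = 9.58e-04, adjusted p = 0.862). *GPR89A* had 7.78, 7.78 and 7.74 with GapmeR 2, against 6.59, 6.66 and 7.41 with the control, a difference of 0.88 (SE 0.20). Its second, dimmer transcript cluster had 5.79, 5.64 and 5.65 with GapmeR 2 against 5.25, 5.28 and 5.57 with the control. *NEMP1*, an inner nuclear membrane protein, had 9.05, 9.23 and 8.88 with GapmeR 2, against 7.97, 8.14 and 8.73 with the control, a difference of 0.77 (SE 0.20, limma unadjusted p = 0.00335, adjusted p = 0.888). In all 3 genes the spread lay in the controls, where replicate 3 was nearest to the arrays labelled GapmeR 2. *NEMP1* missed 1.6-fold without control replicate 1 (0.62), and the GPR89 pair kept the call with any array left out.

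The other 10 higher protein-coding calls lay between 0.70 and 0.83, 9 of them with a signal under the median of all transcript clusters. The exception in signal was *ZNF445*, a zinc finger gene (0.83, SE 0.29), which lost the call without GapmeR 2 replicate 3 or control replicate 1 (0.53 to 1.08 over the arrays left out). Its second, brighter transcript cluster was not called, with 6.70, 6.35 and 6.70 with GapmeR 2 against 6.36, 6.46 and 6.43 with the control (0.17). The Notch coactivator *MAML2*, singled out after its values were seen, had 2.56, 2.15 and 2.71 with GapmeR 2 against 1.59, 1.59 and 1.87 with the control in a dim transcript cluster. Its brighter one had 7.0, 6.59 and 7.01 with GapmeR 2 against 7.02, 6.71 and 7.27 with the control, a difference of -0.13, so the 2 transcript clusters disagreed. The dim one was just under 1.6-fold without GapmeR 2 replicate 3 (0.68). The hair keratin *KRT33A* had 2.66, 3.21 and 2.81 with GapmeR 2 against 2.55, 1.97 and 2.05 with the control (0.70, SE 0.21). It missed 1.6-fold without GapmeR 2 replicate 2 (0.55), control replicate 2 (0.59) or control replicate 3 (0.63).

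The called genes were then read in HCC1395, where the same oligonucleotide was measured on arrays of its own. In that line 6.42% of all 16098 transcript clusters lay wholly below the controls and 7.09% wholly above. Of the 25 genes called lower in HCC1806, 20 had a difference below 0 in HCC1395 (80% against 51.6% of all) and 11 lay wholly below the controls (44%). Among the 19 protein-coding ones 10 did (52.6% against 6.58% of all protein-coding genes), and these were *CDKAL1*, *DMTF1*, *DYM*, *ELP4*, *FHOD3*, *KLHL13*, *LHPP*, *MAP4*, *SMAD2* and *SMAD4*. Of the 26 genes called higher in HCC1806, 14 were above 0 in HCC1395 (53.8% against 48.4% of all) and 3 lay wholly above the controls (11.5%), namely *GPR89B*, *KRT33A* and *LOC100287846*. These shares are a description, and the difference between the lower and the higher calls in them was not tested.

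The size was smaller in HCC1395. *DYM* had 8.96, 9.09 and 8.99 with GapmeR 2 there, against 9.41, 9.36 and 9.46 with the control, a difference of -0.40. *SMAD2* had 9.40, 9.68 and 9.56 with GapmeR 2 against 9.81, 9.75 and 9.90 with the control (-0.27). *SMAD4* had 9.60, 9.90 and 9.88 with GapmeR 2 against 10.03, 10.09 and 9.99 with the control (-0.24), and all 3 genes lay wholly below the controls. *MAP4* had 6.20, 6.49 and 6.51 with GapmeR 2 against 6.81, 6.69 and 6.77 with the control (-0.36). The median over the 25 lower calls was -0.80 in HCC1806 and -0.23 in HCC1395, and the first of these is a value the calls were chosen on. The difference between the lines was tested in 1 fit of all 18 arrays. It passed 1.6-fold at an unadjusted p under 0.05 for 254 of 16098 transcript clusters (1.58%), 151 in which the value was higher in HCC1806 and 103 in which it was lower. After adjustment 0 passed with limma (smallest adjusted p = 0.459, 841 at an unadjusted p of 0.05). *HLCS* was among those that differed, with -0.81 in HCC1806 and -0.08 in HCC1395 (difference -0.73, SE 0.20, unadjusted p = 0.00179). *WDR17* also differed (-0.84, SE 0.22, unadjusted p = 0.00168), while for *DYM* the line difference of -0.55 had an unadjusted p of 0.0676. The called genes were chosen on their HCC1806 value, and the part of that choice in the gap between the lines was not tested.

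GapmeR 1, the other *PART1* GapmeR, was read against the same control arrays, so its differences from control are not independent of those of GapmeR 2 and are given side by side. *SMAD4* had -0.76 with GapmeR 2 and -0.13 with GapmeR 1, *SMAD2* -0.80 and -0.33, *DYM* -0.95 and -0.66, and *CDKAL1* -0.79 and -0.89. *GPR89B* had 0.90 and 0.84, and *NEMP1* 0.77 and 0.62. GapmeR 2 was also set directly against GapmeR 1, which uses no control array. In this contrast 60 of 16098 transcript clusters were called (0.373%), 28 higher and 32 lower with GapmeR 2, and 0 passed adjustment with limma (758 at an unadjusted p of 0.05). *SMAD4* had 6.92, 6.90 and 7.83 with GapmeR 2 against 8.10, 7.83 and 7.59 with GapmeR 1, a difference of -0.63 (SE 0.24, unadjusted p = 0.0282) that did not reach 1.6-fold. *WDR17* had 4.12, 4.10 and 4.60 with GapmeR 2 against 4.70, 5.30 and 5.0 with GapmeR 1 (-0.73, SE 0.19, unadjusted p = 0.00302). *SLC38A12* differed by -0.72 (SE 0.19, unadjusted p = 0.0039) and *ZNF132* by -0.60 (SE 0.15, unadjusted p = 0.00292). For *DYM* the 2 oligonucleotides differed by -0.29 (SE 0.25, unadjusted p = 0.278), and for *CDKAL1* by 0.10 (SE 0.26, unadjusted p = 0.702).

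**Figure D3:**
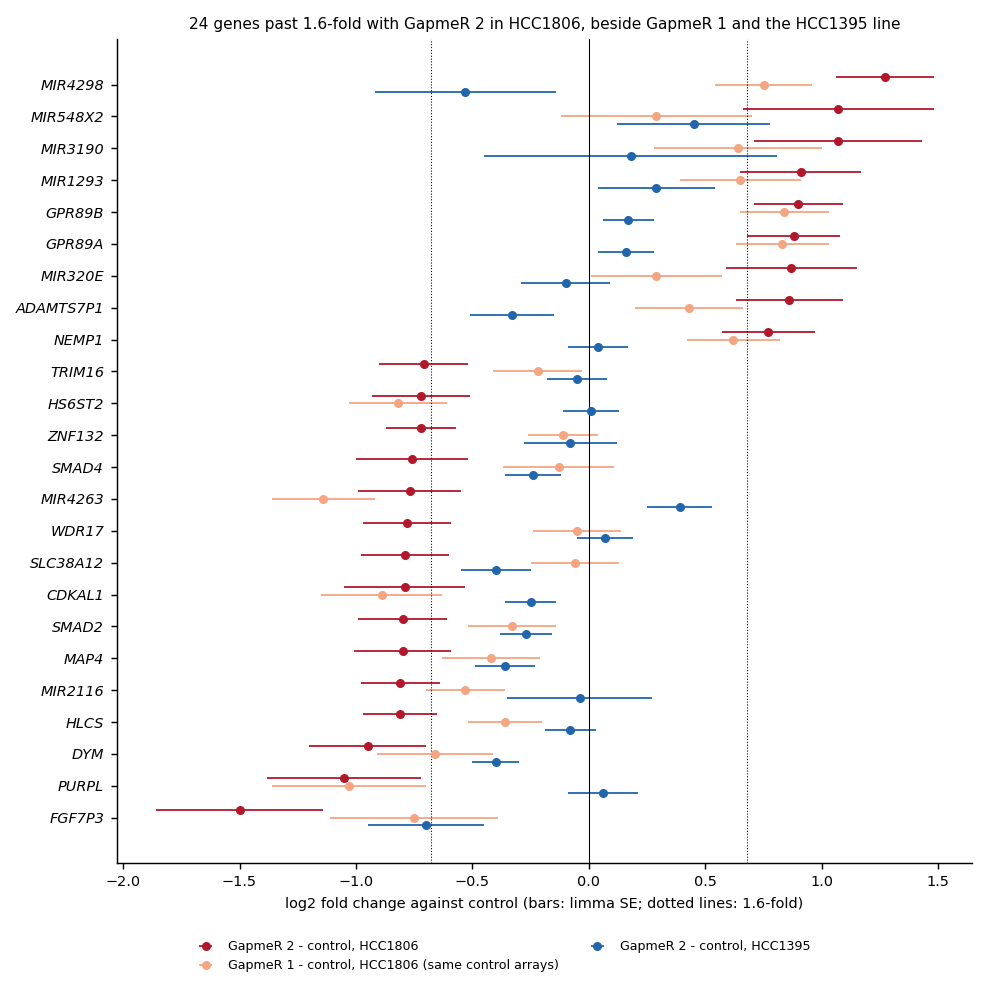
Log2 difference from control, with the limma SE, for 24 genes past 1.6-fold in HCC1806: GapmeR 2 in HCC1806 (red), GapmeR 1 against the same controls (orange) and GapmeR 2 in HCC1395 (blue). *DYM*, *SMAD2*, *SMAD4* and *MAP4* lie below 0 in HCC1395 too (-0.40, -0.27, -0.24 and -0.36), while *HLCS* and *WDR17* lie near 0 there (-0.08 and 0.07).

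The lower genes were long. The RefSeq gene span was 139 kb at the median for the 19 protein-coding genes called lower, 33.2 kb for the 13 called higher and 25.8 kb for the 12663 not called. Spans over 100 kb belonged to 13 of the 19 and 2 of the 13, and among the genes not called to 2210. *CDKAL1* spans 698 kb, *FHOD3* 483 kb, *DYM* 424 kb, *HS6ST2* 335 kb and *HLCS* 242 kb, whereas *SMAD4* spans 54.8 kb and *ZNF132* 7.34 kb. Protein-coding transcript clusters at or over the median signal were then binned by span without regard to the calls. The share lower at an unadjusted p of 0.05 was 0.611% of 2454 genes under 10 kb, 0.964% of 4251 genes of 10 to 50 kb, 2.24% of 1518 genes of 50 to 100 kb and 3.5% of 1000 genes of 100 to 200 kb. It reached 7.91% of 493 genes of 200 to 500 kb and 12.4% of 89 genes over 500 kb. The share higher was between 0.4% and 1.18% in every bin. In this bright set the share of lower genes thus increased with span in each step while that of higher genes did not.

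The shift was small, and it was present on each array labelled GapmeR 2 only in genes over 200 kb. In genes of 200 to 500 kb the median difference from the control mean was -0.10, -0.09 and -0.13 on the 3 arrays labelled GapmeR 2, against -0.01, -0.01 and 0.03 on the controls. In genes under 10 kb it was 0.02, -0.01 and 0.03 with GapmeR 2, against -0.03, 0.02 and 0.01 with the control. With GapmeR 2 it was 0.016, 0.001 and -0.062 at 50 to 100 kb and 0.012, -0.004 and -0.092 at 100 to 200 kb. In these bins replicate 3 alone was clearly lower. All arrays were measured from the same control mean. The median difference between the groups was 0.01, 0.01, -0.02, -0.03, -0.11 and -0.11 from the shortest to the longest bin. With GapmeR 1 in HCC1806, which shares the controls, it was -0.18 in genes of 200 to 500 kb and -0.19 over 500 kb. With GapmeR 2 in HCC1395 it was 0.03 and 0.02 in these bins, so the second line did not show it. Over protein-coding genes of any signal the share lower was 0.946% under 10 kb, 5.88% at 200 to 500 kb and 6.7% over 500 kb, with medians of 0.02, -0.06 and -0.02. The share higher in these bins was 1.74%, 1.78% and 2.39%, with 1.05% at 50 to 100 kb. Without the signal filter the share higher was thus also largest in the longest genes. The median signal of the bins was between 5.61 and 6.82 in the bright set. The part of probe number, intronic RNA or signal in this pattern was not tested.

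**Figure D4:**
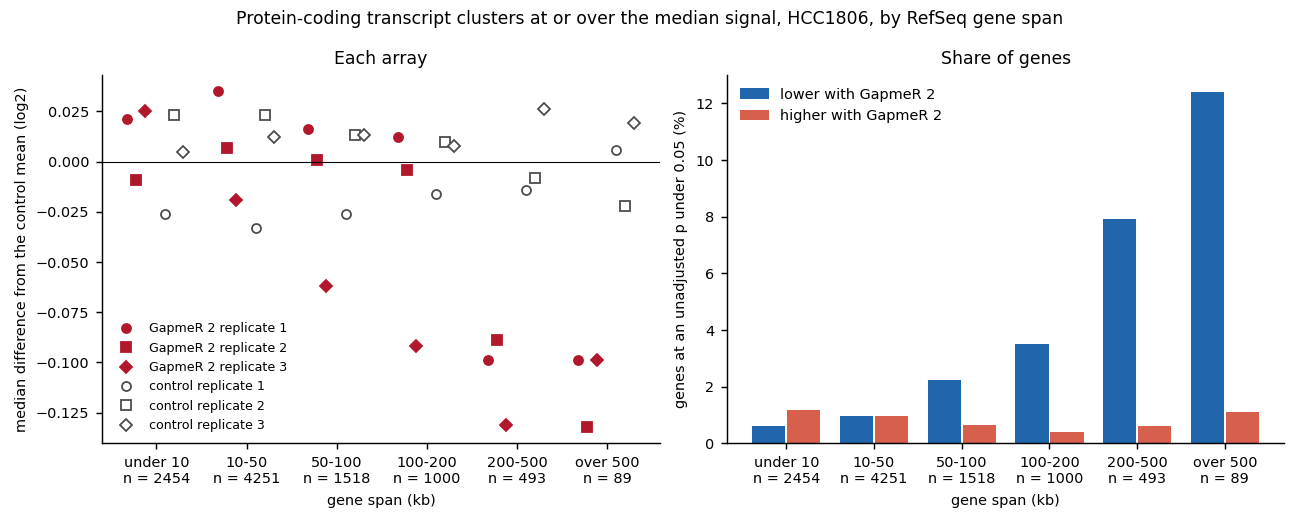
Bright protein-coding genes by RefSeq gene span in kb. Left, the median log2 difference from the control mean on each array (points); right, the percent of genes lower (blue) or higher (red) with GapmeR 2 at an unadjusted p under 0.05. The lower share is 0.611% in the shortest bin and 12.4% in the longest, and all 3 arrays labelled GapmeR 2 lie below the controls in both bins over 200 kb.

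MicroRNA genes were the class with the most higher calls outside protein-coding genes. A microRNA is a short RNA that pairs with target transcripts, mainly through its seed, the bases 2 to 8. All 13 called microRNA genes had mature sequences in RefSeq (GRCh38.p14), 19 sequences with 18 distinct seeds. The arrays read total RNA, and the sources used here do not say which part of a microRNA transcript the probes read, so the values below are signals of the microRNA gene and not of the mature strand. All mature sequences that the RefSeq table holds for the microRNAs described below are shown 5′ to 3′ with the seed in capitals, because targets are paired mainly through it.
hsa-miR-4298: cUGGGACAggaggaggaggcag
hsa-miR-499a-5p: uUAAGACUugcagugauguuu
hsa-miR-499a-3p: aACAUCACagcaagucugugcu
hsa-miR-1293: uGGGUGGUcuggagauuugugc
hsa-miR-3190-3p: uGUGGAAGguagacggccagaga
hsa-miR-320e: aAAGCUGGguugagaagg
hsa-miR-548x-3p: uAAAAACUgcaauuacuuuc
hsa-miR-548x-5p: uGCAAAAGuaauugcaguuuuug
hsa-miR-2116-3p: cCUCCCAUgccaagaacuccc
hsa-miR-2116-5p: gGUUCUUAgcauaggaggucu
hsa-miR-4263: aUUCUAAGugccuuggcc
hsa-miR-323b-3p: cCCAAUACacggucgaccucuu
hsa-miR-323b-5p: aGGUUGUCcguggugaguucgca

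The higher microRNA genes had low signals. *MIR4298* on chromosome 11 had 4.88, 4.43 and 4.28 with GapmeR 2, against 3.43, 3.37 and 2.99 with the control. It had the smallest p of the 16098, with a difference of 1.27 or 2.41-fold (SE 0.21, limma unadjusted p = 1.20e-04, adjusted p = 0.82), and in HCC1395 its difference was -0.53. *MIR3190* had 3.82, 3.89 and 4.26 with GapmeR 2 against 3.27, 2.53 and 2.96 with the control (1.07, SE 0.36), while its 2 other, brighter transcript clusters were not called, with differences of -0.16 and 0.18. *MIR1293* had 2.67, 3.60 and 3.29 with GapmeR 2 against 2.38, 2.42 and 2.03 with the control (0.91, SE 0.26). *MIR320E* had 4.78, 5.07 and 4.66 with GapmeR 2 against 4.54, 3.25 and 4.11 with the control (0.87, SE 0.28), and without control replicate 2 the difference was 0.51. None of these overlapped between groups, as the naming rule required, and control replicate 2 of *MIR320E* stood well below the other controls. *MIR3190* lost the call without GapmeR 2 replicate 3 (0.93) or control replicate 2 (0.87), and *MIR4298* and *MIR1293* kept it with any array left out.

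*MIR499A*, singled out after its values were seen, is the human gene of a microRNA known from heart and slow muscle. It had 3.36, 2.94 and 3.29 with GapmeR 2, against 2.39, 2.38 and 2.38 with the control and 2.25, 2.55 and 2.13 with GapmeR 1. It was 0.81 above the control (SE 0.16, unadjusted p = 4.34e-04) and 0.88 above GapmeR 1 (SE 0.16, unadjusted p = 2.32e-04, limma adjusted p = 0.789). Its second transcript cluster did not share this, with 3.62, 3.76 and 3.52 with GapmeR 2 against 3.79, 3.70 and 3.06 with the control.

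Of the lower microRNA genes, *MIR2116* had 2.78, 2.88 and 3.12 with GapmeR 2 against 3.48, 3.87 and 3.88 with the control (-0.81, SE 0.17). *MIR4263* had 4.47, 4.52 and 4.45 with GapmeR 2 against 5.23, 5.20 and 5.32 with the control (-0.77, SE 0.22). Both kept the call with any array left out. The mature hsa-miR-548x-3p is encoded by 2 genes, of which 1 transcript cluster each was called, in opposite directions. *MIR548X2* on chromosome 13 had 4.57, 3.94 and 3.87 with GapmeR 2 against 3.66, 2.09 and 3.42 with the control (1.07, SE 0.41). Its second, dimmer transcript cluster had 1.75, 1.43 and 1.45 with GapmeR 2 against 1.19, 1.53 and 1.37 with the control (0.18) and overlapped. *MIR548X* on chromosome 21 had 1.20, 2.29 and 1.29 with GapmeR 2 against 2.89, 3.30 and 1.79 with the control (-1.07, SE 0.40), and its groups overlapped. *MIR548X2* lost the call without GapmeR 2 replicate 1 (0.85) or control replicate 2 (0.59), and *MIR548X* without GapmeR 2 replicate 1 or 3 or control replicate 1 or 2, with differences between -1.51 and -0.75 over all arrays left out. Of 54 measured genes of this microRNA family, 2 were called higher and 1 lower, with a median of -0.15. Of all 1236 microRNA transcript clusters 9 were called higher and 4 lower, with a median of 0.03. That is 1.05%, against 1.04% of all transcript clusters with or without a symbol.

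Among other non-coding genes, *PURPL*, a p53-induced long non-coding RNA that limits p53 levels, had 4.48, 3.90 and 4.40 with GapmeR 2 against 5.89, 4.77 and 5.30 with the control (-1.05, SE 0.33, unadjusted p = 0.00906). It was called with any array left out, and it had -1.03 with GapmeR 1. In HCC1395 its difference was 0.06, but it was dim there. Its signals in that line were 2.23, 2.69 and 2.64 with GapmeR 2 against 2.38, 2.47 and 2.53 with the control. The pseudogene *FGF7P3* had 3.02, 2.18 and 2.06 with GapmeR 2 against 4.37, 3.59 and 3.81 with the control (-1.50, SE 0.36). Its second transcript cluster had a difference of -0.03. FGF7 pseudogenes occur in several near-identical copies, so the assignment of this signal is uncertain. The pseudogene *ADAMTS7P1* had 5.19, 4.68 and 5.30 with GapmeR 2 against 3.78, 4.24 and 4.56 with the control (0.86, SE 0.23). Its second transcript cluster had a difference of -0.05, and the first missed 1.6-fold without control replicate 1 (0.66).

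Gene groups were described through 27 lists with 383 measured genes, of which 10 were called. The lists were chosen with earlier results of these data known, so no list was tested. Each gene entered by its brightest transcript cluster. Of all 14884 genes taken in this way, 19 were called higher and 23 lower, and 7678 were above 0. Of 13 measured genes of the TGF-beta list, none of them a receptor, 2 were called lower, *SMAD2* and *SMAD4*. *SMURF1*, a ubiquitin ligase that marks SMADs for degradation, had 7.64, 7.58 and 8.13 with GapmeR 2 against 8.20, 8.27 and 8.33 with the control (-0.48, unadjusted p = 0.0157). The closely related *SMAD3* had a difference of -0.05 and the median of the list was -0.10. Of the 13 genes 9 were below 0, and the median was -0.15 to 0.03 with single arrays left out. Wholly below the controls lay 4 of the 13, against 806 of all 14884 genes. The calls in this list were those of particular members.

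The replication list had 0 of 20 genes called, and 18 of the 20 were below 0, with a median of -0.10. *GINS1*, a subunit of the replicative helicase, had 7.63, 7.5 and 8.34 with GapmeR 2 against 8.49, 8.42 and 8.51 with the control (-0.65, unadjusted p = 0.00862). *CDC45*, which binds the same helicase, had 6.88, 6.76 and 7.26 with GapmeR 2 against 7.23, 7.64 and 7.51 with the control (-0.49, unadjusted p = 0.0139). In both the third array labelled GapmeR 2 was again the nearest to the controls. The mitosis list had 0 of 21 called and 13 below 0. Its smallest p was that of the mitotic kinase *PLK1*, at 9.35, 9.32 and 9.61 with GapmeR 2 against 9.68, 9.75 and 9.76 with the control (-0.30, unadjusted p = 0.038). In the microtubule list, *MAP4* was the 1 of 13 called and 11 were below 0. There *TBCEL*, a tubulin-destabilising protein, had 3.76, 3.42 and 3.45 with GapmeR 2 against 4.17, 4.37 and 3.85 with the control (-0.59, unadjusted p = 0.00595).

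The list of ATF4 targets, the genes of the amino acid and stress response, stood on the other side. None of its 16 genes was called and 13 were above 0, with a median of 0.11 (0.06 to 0.16 with single arrays left out). *ASNS*, which makes asparagine, had 6.65, 6.49 and 6.76 with GapmeR 2 against 5.93, 5.95 and 6.08 with the control. All 3 arrays were above the controls, with a difference of 0.64 (unadjusted p = 0.0221, limma adjusted p = 0.953). *ATF4* and *PSPH*, a serine synthesis enzyme, each had a difference of 0.19.

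The p53 target list had 1 of 12 called (*PURPL*), the heparan sulfate list 1 of 25 (*HS6ST2*), the list of cadherins and neuronal adhesion genes 1 of 12 (*NETO1*) and the keratin list 1 of 23 (*KRT33A*, a hair keratin). *SYT1*, the calcium sensor of synaptic vesicles, stopped just under 1.6-fold, at 4.08, 4.04 and 4.31 with GapmeR 2 against 4.73, 4.88 and 4.84 with the control (-0.67, unadjusted p = 3.59e-04). *ESRP1*, an epithelial splicing regulator, had 9.69, 9.68 and 10.11 with GapmeR 2 against 10.20, 10.07 and 10.36 with the control (-0.38, unadjusted p = 0.0374). *RNASEH1*, the nuclease through which GapmeRs act, had 5.43, 5.70 and 5.53 with GapmeR 2 against 5.80, 5.84 and 5.79 with the control (-0.26, unadjusted p = 0.0626). No gene was called in the lists of interferon-stimulated genes (16 measured), the unfolded protein response (11), NF-kB targets (11), androgen response (11), stemness (13), hypoxia (9), BCL2 family (13) or antisense cleavage and sensing (14). The medians of these 8 lists were between -0.06 and 0.19.

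The study's QPCR panel was chosen on these samples and is not independent evidence. Of its 7 genes with a symbol here, *GPR89A* and *GPR89B* were called higher and *CDKAL1* lower. *ZHX2*, a transcriptional repressor, had 6.0, 5.87 and 5.94 with GapmeR 2 against 6.36, 6.59 and 6.58 with the control (-0.58, unadjusted p = 0.0101). *SUPT3H*, a SAGA subunit, had 5.04, 4.94 and 5.01 with GapmeR 2 against 5.47, 5.77 and 5.71 with the control (-0.65, unadjusted p = 0.0633). Both lay wholly below the controls and under the 1.6-fold line. *BICC1*, an RNA-binding protein, had 3.65, 3.54 and 4.17 with GapmeR 2 against 3.95, 3.23 and 2.80 with the control (0.46), and the kallikrein *KLK5* had 8.95, 8.54 and 8.24 with GapmeR 2 against 8.72, 8.77 and 8.63 with the control (-0.13), with overlap in each.

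**Figure D5:**
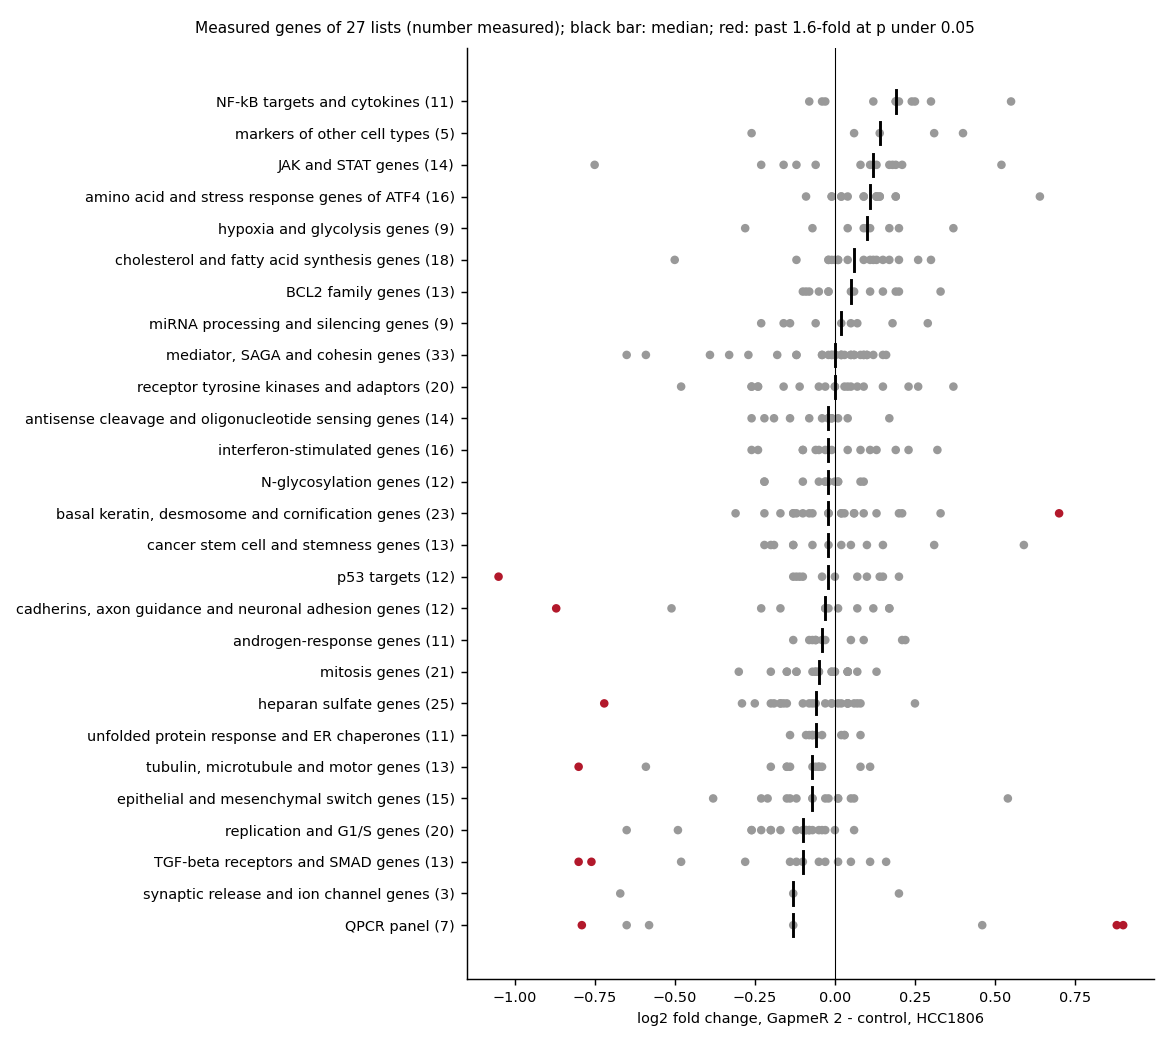
Log2 difference, GapmeR 2 minus control, of each measured gene (points) in 27 lists ordered by their median (black bar), with called genes in red. *SMAD2* (-0.80) and *SMAD4* (-0.76) stand apart from the rest of their list, and list medians stay between -0.13 and 0.19.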

How the data were processed

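Human Gene 2.0 ST arrays (Affymetrix) measured total RNA. The authors summarised probes to transcript clusters with RMA in Affymetrix Expression Console, per the labels, and deposited log2 signals. Versions and the genome build of the probe design are not given in the sources used here. The deposited values were used without change. Symbols came from the platform annotation (16098 transcript clusters with 1 symbol, 0 with several, 37519 with none). Classes, spans, gene order and sequences came from RefSeq (GRCh38.p14). Linear models were fitted with limma 3.58.1 (lmFit, eBayes) in R 4.3.3 over the 9 HCC1806 arrays, and over 18 arrays for the line difference. They covered all 53617 transcript clusters, with Benjamini-Hochberg adjustment and two-sided tests. Summaries and plots used Python 3.11.15, pandas 2.3.3, NumPy 2.4.6 and matplotlib 3.10.9. The methods name the Transcriptome Analysis Console without a design. Script and model were tested on simulated data.

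Named genes were *PART1* and the QPCR panel, called genes without overlap between groups ranked by size (up to 12 bright protein-coding and 6 of other classes each way), the 3 smallest p-values of each list, and those differing most from GapmeR 1 or HCC1395. The members and lists were chosen with earlier results of these data known. The gene span bins were added after seeing the data. Alternatives varied the arrays fitted, normalization, variance model, weights, filters, fold threshold, replicate block and each array. The number of arrays limits the precision. GapmeR sequences and transcript clusters without a symbol are not described here.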

Additional observations from a re-analysis of the deposited data

Results flagged for a closer look

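The response of 2 microRNA genes ran in opposite directions in the 2 lines on every array, and limma's test of the difference gave an unadjusted p under 0.05. *MIR4263* had 4.47, 4.52 and 4.45 with GapmeR 2 against 5.23, 5.20 and 5.32 with the control in HCC1806, and 3.98, 3.98 and 3.81 with GapmeR 2 against 3.70, 3.60 and 3.29 with the control in HCC1395. The difference between the lines was -1.16 (unadjusted p = 4.66e-04, limma adjusted p = 0.537). *MIR323B* had 3.46, 3.17 and 3.83 with GapmeR 2 against 3.13, 2.19 and 2.69 with the control in HCC1806, and 2.64, 2.36 and 2.57 with GapmeR 2 against 3.22, 3.10 and 3.54 with the control in HCC1395. The difference between the lines was 1.57 (unadjusted p = 8.90e-04, limma adjusted p = 0.601). *MIR323B* missed an unadjusted p of 0.05 or 1.6-fold in HCC1806 without GapmeR 2 replicate 3 or control replicate 2 (0.58 to 1.04 over the arrays left out). Neither difference passed the adjustment over all transcript clusters.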

How the results depend on the processing

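No alternative gave a call at an adjusted p of 0.05 among genes with a symbol. The 51 calls became 31 without the dimmest 40% of transcript clusters (11 higher), 6 at 2-fold (3 higher and 3 lower) and 406 at 1.3-fold (204 higher and 202 lower), and the unmoderated model called 34, 16 of them higher. Leaving out single arrays gave 69 to 114 calls, 36 to 44 higher and 27 to 70 lower, with the highest counts without GapmeR 2 replicate 3. The contrast with GapmeR 1 gave 80 to 176 calls (60 with all arrays), with 176 without GapmeR 1 replicate 3. Of the 51 called genes, 32 were called under each of the up to 10 alternatives that kept all arrays and 14 also with each array left out. Of 1558 values of named genes under alternatives, 26 lost the call, 17 gained it and 1 changed sign: *KLK5* was -0.13 with all arrays and -0.32 to 0.04 with single arrays left out, where 0.039 was the value without GapmeR 2 replicate 3. The cause was not tested. Medians of 15 of the 27 lists changed sign with an array left out. The labels do not say whether replicate numbers pair the arrays. Deviations from the group mean correlated weakly between GapmeR 2 and control arrays of the same number (-0.007, 0.066 and 0.078 over all transcript clusters). The replicate block gave 52 calls. With it 661 transcript clusters with a symbol reached an unadjusted limma p of 0.05, against 570 in the main fit. The smallest adjusted p over all transcript clusters was 0.211 with the block and 0.722 without it. Pairing in single genes was not tested. Arrays have no read depth, and dim transcript clusters, which most higher calls are, have the least signal over background.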

Other observations

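Among the 37519 transcript clusters without a symbol, 506 were called (1.35%), 174 higher and 332 lower with GapmeR 2. They were not named here.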
